A study of Caenorhabditis elegans with 4 samples.

Results

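The HTZ-1 sites on the arms of C. elegans chromosome V were the peaks of the series' combined peak list that lie on V with a midpoint at or below 7 Mb (left arm) or above 14 Mb (right arm). They numbered 695 of the 7546 peaks in that list, 367 on the left arm and 328 on the right arm. HTZ-1 is the H2A.Z of the worm, a histone variant that takes the place of H2A in some nucleosomes. The samples were wild-type N2 embryos, a mixture of stages from a population of males and hermaphrodites kept at 20 °C. The series holds 2 ChIP samples made with an affinity-purified rabbit polyclonal antibody to the N-terminus of HTZ-1, and 2 samples of input DNA, which were not analysed here. Each ChIP sample is a pool of whole embryos obtained by bleaching gravid adults, so a site used in few cells cannot be told apart from a site used weakly in many, and nothing in the labels tells whether replicates were grown apart.

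H2A.Z is known from many organisms for its place in nucleosomes beside transcription start sites, where it is put in by remodelling complexes of the SWR1 class. The autosomes of C. elegans have gene-rich centres with many conserved, broadly expressed genes, and arms that recombine more often and hold more repeats, more heterochromatin and more rapidly evolving gene families. Chromosome V is known for its very large families of chemoreceptor genes, many of them on the arms and many expressed in few neurons. Which genes lie at the sites was not analysed here.

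The 3 sets of peaks compared were the combined list and the separate list of each ChIP replicate. No read counts were used, so the depth behind the peaks is unknown. All positions are on WormBase WS220, 1-based. The combined list has no replicates of its own, and with 2 ChIP samples in a single group no test between groups exists. Differences are therefore set beside the spread between the 2 replicate lists, or given with exact 95% binomial intervals that cover counting error only, since neighbouring peaks are not independent. No p-value is given for any comparison.

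HTZ-1 sites were spread over both arms, somewhat more densely on the left. The combined list had 52.4 peaks per Mb on the left arm and 47.7 on the right arm, a ratio of 1.10. Replicate 1 had 26.1 peaks per Mb on the left arm and 21.8 on the right. Replicate 2 had 23.0 on the left and 21.4 on the right. Averaged over the replicates, the left arm had 24.6 ± 2.22 peaks per Mb and the right arm 21.6 ± 0.308 (SD, n = 2 replicates). Both left-arm values lay above both right-arm values, but replicate 2 alone put the arms only 1.08-fold apart, and the 2 values for the left arm differed from each other by more than that. Peaks covered 4.08% of the left arm and 3.89% of the right arm in the combined list.

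Both arms were on average sparser in sites than the centre of the same chromosome, the 7 Mb between them. The arms together had 50.1 combined-list peaks per Mb and the centre 57.9, a ratio of 0.865. The replicate lists put the arms lower still. Replicate 1 had 24.0 peaks per Mb on the arms and 32.7 in the centre (ratio 0.733), and replicate 2 had 22.2 on the arms and 32.7 in the centre (ratio 0.678). The 2 ratios differed by less than either lay from 1. Over the whole list the combined density was 75.4 peaks per Mb, and the arms of V held 9.21% of all its peaks. Taking every autosome's outer parts as those outside its central 1/3, V had 23.1 ± 1.27 peaks per Mb there (SD, n = 2 replicates). The next lowest was IV with 33.6 ± 0.909, and the highest was I with 50.2 ± 1.90 (SD, n = 2 replicates each). These are descriptions of single chromosomes, and whether V stands apart from the others was not tested.

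The sites were not evenly laid along either arm, as the profile in 1 Mb bins shows. On the left arm the fullest bin was 4 to 5 Mb, with 64 combined-list peaks, and the emptiest was the bin just before it, 3 to 4 Mb, with 34. In those bins replicate 1 had 34 and 19 peaks and replicate 2 had 26 and 21, so each list had more peaks in the later of the 2. They were not the extremes of every list, since replicate 1 also had 34 peaks at 5 to 6 Mb, and replicate 2 had its maximum of 30 there and its minimum of 18 at 0 to 1 Mb. On the right arm the fullest bin was the innermost, 14 to 15 Mb, with 61 combined-list peaks, 38 in replicate 1 and 33 in replicate 2. The emptiest was 18 to 19 Mb in the combined list, with 39 peaks, whereas replicate 1 had its minimum of 14 at 17 to 18 Mb and replicate 2 its minimum of 11 at 16 to 17 Mb. Over the 7 bins of each arm the combined density averaged 52.4 ± 10.3 peaks per Mb on the left and 47.8 ± 8.24 on the right (SD over bins, n = 7 each). The 7 bins of the centre averaged 57.9 ± 6.91, from 52 to 69. The contrast with the centre did not hold for every bin. The centre bin next to the left arm, 7 to 8 Mb, had 52 combined-list peaks, 22 in replicate 1 and 25 in replicate 2. Each count lay below that of the left-arm bin at 4 to 5 Mb.

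**Figure D1:**
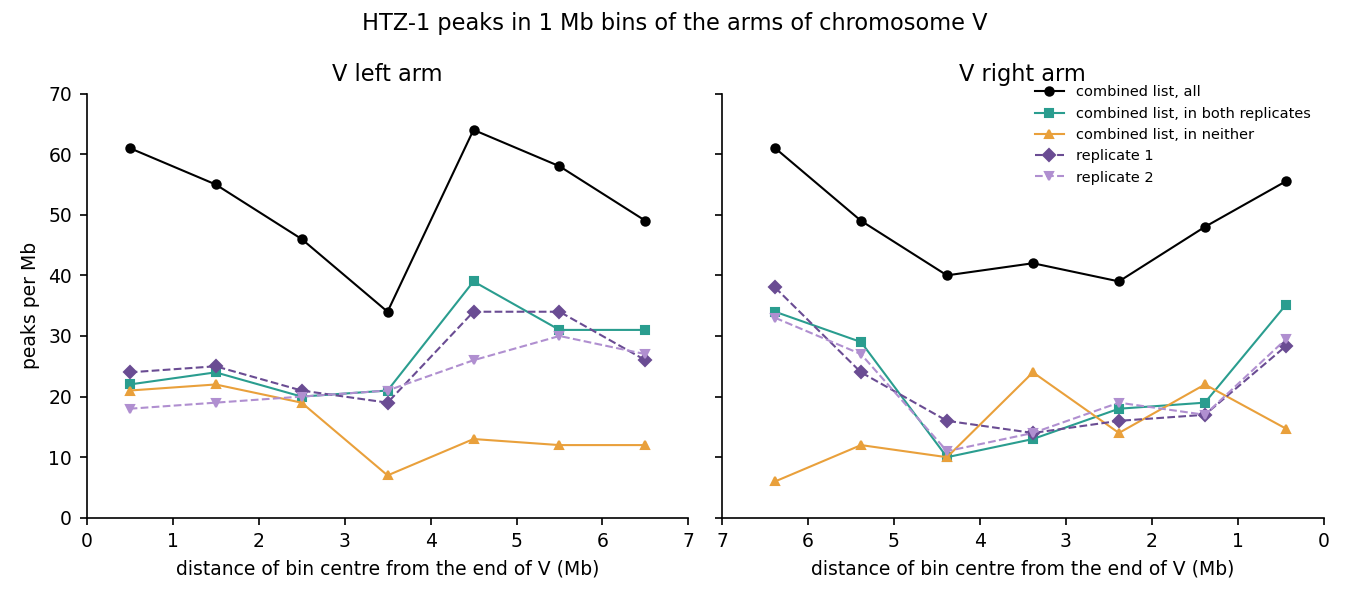
Peaks per Mb (vertical axis) in 1 Mb bins of the left and right arm of V, against the distance of the bin's centre from the end of the chromosome in Mb (the right end is the furthest deposited peak). Lines stand for all combined-list peaks, those found in both replicates, those found in neither, and the peaks of each replicate. On the right arm both replicates lie between 11 and 19 peaks per Mb from 16 to 20 Mb and stand at 28.3 and 29.5 in the outermost bin.

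Along the right arm a sparser stretch from 16 to 20 Mb lay between denser segments, which were delimited after the bins had been seen. From 14 to 16 Mb it was close to the chromosome centre in both measures, with 55.0 combined-list peaks per Mb, of which 57.3% were found in both replicates (exact 95% interval 47.5% to 66.7%). From 16 to 20 Mb there were 42.3 peaks per Mb, and only 60 of 169 (35.5%, interval 28.3% to 43.2%) were found in both. Replicate 1 had 15.8 peaks per Mb there and replicate 2 had 15.3, against 31.0 and 30.0 in the innermost 2 Mb. Beyond 20 Mb, in the last 0.883 Mb, density was 55.5 combined-list peaks per Mb, 28.3 in replicate 1 and 29.5 in replicate 2, and 31 of 49 peaks were found in both (63.3%, interval 48.3% to 76.6%). The terminal segment of the right arm thus had more sites per Mb than the 4 Mb next to it in all 3 lists.

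On the left arm the outer 3 Mb and the inner 4 Mb had similar numbers of combined-list peaks, 54.0 and 51.3 per Mb. The peaks differed in support, score and width. In the upper 50% of the combined list by score stood 42.6% of the outer and 49.8% of the inner peaks. Their median widths were 500.5 and 645 bp. Whether support differed beyond score and width was not tested. In the outer 3 Mb, 66 of 162 peaks (40.7%, exact 95% interval 33.1% to 48.7%) were found in both replicates and 62 (38.3%) in neither. In the inner 4 Mb, 122 of 205 (59.5%, interval 52.5% to 66.3%) were found in both and 44 (21.5%) in neither. The replicates' own densities were 23.3 and 19.0 peaks per Mb in the outer 3 Mb and 28.3 and 26.0 in the inner 4 Mb for replicate 1 and replicate 2. Nearly all replicate peaks on the arms met a combined-list peak, so these densities are not separate support for the division. This division was also made after the bins had been seen.

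About as many arm sites met peaks of both replicates as did not, a lower share than over the list as a whole. Of the 695 arm peaks, 342 (49.2%, exact 95% interval 45.4% to 53.0%) overlapped a peak of each replicate by 1 bp or more, against 244 of 405 in the V centre (60.2%, interval 55.3% to 65.0%) and 57.6% of the whole list. By arm, 188 of 367 on the left (51.2%, interval 46.0% to 56.4%) and 154 of 328 on the right (47.0%, interval 41.4% to 52.5%) met both, and the intervals of the arms overlap widely. A further 207 arm peaks (29.8%, interval 26.4% to 33.3%) met neither replicate, against 84 (20.7%, interval 16.9% to 25.0%) in the centre and 23.3% of the whole list. They were divided between the arms as 106 on the left (28.9%) and 101 on the right (30.8%). The outer parts of the other autosomes, as defined above, lay between the arms of V and the whole list. There 54.3% (II) to 57.0% (IV) met both replicates and 23.5% (III) to 26.8% (II) met neither.

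Peaks found in a single replicate were more often those of replicate 1. On the left arm 57 peaks met replicate 1 only (15.5%) and 16 met replicate 2 only (4.36%), against 13.9% and 5.23% of the whole list. On the right arm 43 met replicate 1 only (13.1%) and 30 met replicate 2 only (9.15%, exact 95% interval 6.26% to 12.8%). The interval for replicate 2 only on the left arm, 2.51% to 6.98%, overlaps that of the right arm slightly, and the difference between the arms was not tested.

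**Figure D2:**
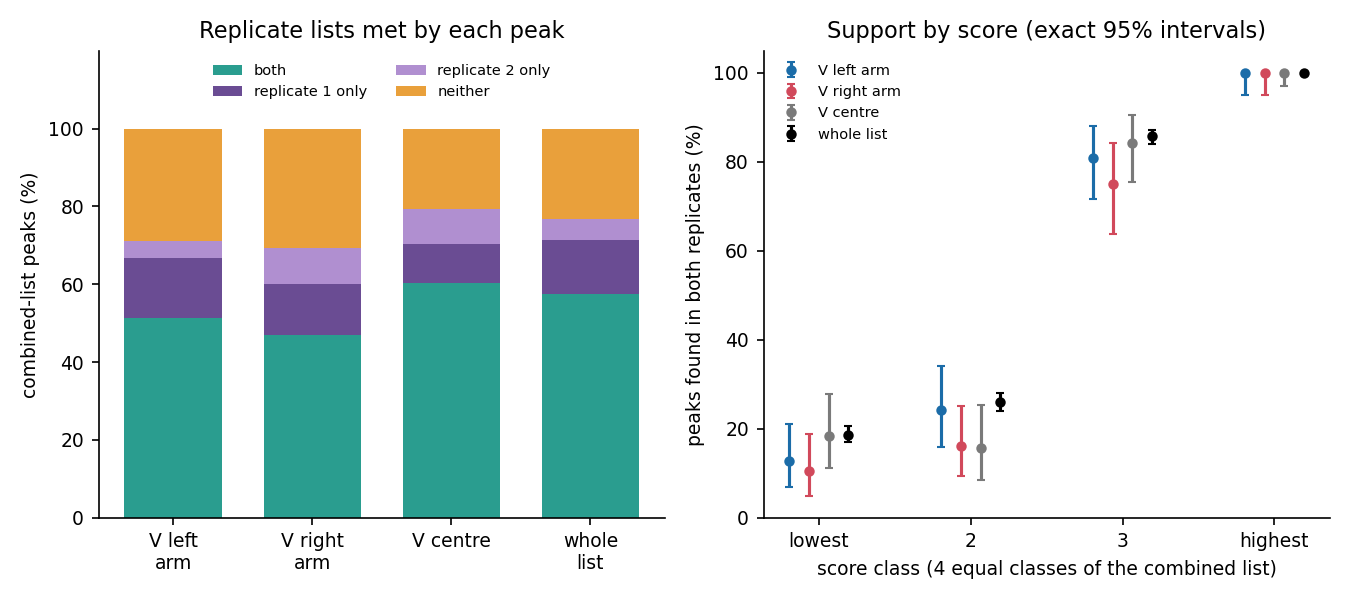
Left, the share of combined-list peaks (%) that met both replicate lists, one of them or neither, for the left arm, the right arm, the V centre and the whole list. Right, the share found in both replicates (%) within each of 4 equal score classes of the combined list, with exact 95% intervals; all of the arm peaks in the highest class, 72 on the left and 73 on the right, were found in both.

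Support followed the score. The combined list was divided into 4 classes of equal size by the authors' peak score, for which no scale is stated, so scores are compared only within a list. The highest class held 145 arm peaks, and all 145 were found in both replicates (exact 95% interval from 97.5%), as were 99.9% of that class over the whole list. In the next class 137 of 175 arm peaks were (78.3%, interval 71.4% to 84.2%), against 85 of 101 in the centre (84.2%, interval 75.6% to 90.7%). In the lower 2 classes the shares were 20.2% (interval 14.7% to 26.7%) and 11.8% (interval 7.52% to 17.3%) on the arms, against 15.7% (interval 8.61% to 25.3%) and 18.5% (interval 11.1% to 27.9%) in the centre. In each class the intervals of arms and centre overlap. Over the whole list the shares were 85.7% in the class next to the highest, and 25.9% and 18.7% in the lower 2. The arms and the centre both lay below the whole list in each of these classes. Whether the lower support of the arms goes beyond their lower scores was not tested. The arms had fewer of their peaks in the highest class, 20.9% against 31.9% in the centre. Of the arm peaks 46.0% (interval 42.3% to 49.8%) stood in the upper 50% of the combined list by score, against 56.8% (interval 51.8% to 61.7%) in the centre, the share over the whole list being 50% by construction. The outer parts of the other autosomes were close to the arms of V, from 45.8% on IV to 47.4% on III. The replicates gave shares of 44.1% and 48.1% on the arms and of 57.6% and 52.8% in the centre for replicate 1 and replicate 2.

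The sites that met neither replicate were narrow and low in score. On the arms their median width was 280 bp and their median score 5.82, against 1159.5 bp and 55.9 for the arm peaks found in both. Above the median score of the whole list stood 12 of the 207 (5.80%), against 3 of 84 in the centre (3.57%) and 44 of 1761 over the whole list (2.50%). Their median distance to the nearest peak of either replicate was 9688 bp on the left arm and 10478 bp on the right arm, and 7019 bp in the centre. More than 20 kb from any replicate peak lay 37 of the 106 on the left arm (34.9%) and 35 of the 101 on the right arm (34.7%), against 14 of 84 in the centre (16.7%). The lists differ in their lower limits. Over the whole lists the narrowest peak had 1123 bp in replicate 1, 1095 bp in replicate 2 and 146 bp in the combined list. The lowest scores were 50.11, 50.17 and 1.35, with no common scale stated. Meeting neither list therefore does not show that a site was absent from the replicates.

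A group of wider unsupported peaks lay on the right arm. From 17115439 to 17132092 on V, a span of 16.7 kb, there were 7 combined-list peaks that together covered 11.5 kb and met no peak of either replicate. They had widths of 423 to 4056 bp and scores of 11.1 to 21.8. One of them, at 17119945 to 17124000, was the widest combined-list peak on the right arm, with a width of 4056 bp and a score of 19.9. Another, at 17128201 to 17129411, was the highest-scoring right-arm peak that met neither replicate, with a score of 21.8 and a width of 1211 bp. Of the 9 unsupported peaks on the right arm that scored above the list's median, 5 lay in this group, while the other 4, and all 3 on the left arm, lay elsewhere. All 4 unsupported peaks wider than 1 kb on the arms lay in it too, of 12 in the whole list. The group was singled out after its values had been seen. The tandem genes for the smallest ribosomal RNA and for the spliced leader of C. elegans are known to lie on the right arm of V, and whether they lie under these peaks was not analysed here.

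The replicates placed most of their arm peaks at the same sites. On the arms 277 of 333 replicate 1 peaks met a replicate 2 peak (83.2%, exact 95% interval 78.7% to 87.0%), against 90.4% in the V centre (interval 85.8% to 93.9%) and 85.9% of the whole replicate 1 list. In the other direction 281 of 308 replicate 2 peaks met a replicate 1 peak (91.2%, interval 87.5% to 94.1%), against 92.6% in the centre (interval 88.4% to 95.6%) and 93.6% of the whole list. In the outer parts of the other autosomes, as defined above, the replicate 1 shares ran from 83.8% on I to 87.0% on IV, near that of the V arms. The replicate 2 shares there ran from 92.1% on I to 93.8% on IV. By arm, the replicate 1 shares were 82.0% on the left and 84.7% on the right. The replicate 2 shares ran the other way, 94.4% on the left (interval 89.7% to 97.4%) and 87.8% on the right (interval 81.3% to 92.6%), so no difference between the arms held in both directions. Of the 56 replicate 1 peaks on the arms with no partner, 54 were in the lowest 25% of that list by score, and of the 27 in replicate 2, 23 were. Across the 277 overlapping pairs seen from replicate 1 the Spearman rho of the scores was 0.892, a description over peaks that share 2 libraries and a ceiling of tied scores. At or above the tied top score of 3100 stood 33 of the 333 replicate 1 arm peaks (9.91%, against 13.4% of that list) and 16 of the 308 in replicate 2 (5.19%, against 4.85%).

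Arm sites were narrower than centre sites in the combined list, and the 2 arms had nearly the same median. The median width was 586 bp on the left arm (quartiles 298.5 and 1167 bp) and 583 bp on the right (quartiles 308.5 and 1211.5 bp), against 924 bp in the V centre (quartiles 351 and 1409 bp) and 720.5 bp over the whole list. In the outer parts of the other autosomes, as defined above, it ranged from 602 bp on IV to 650 bp on I, nearer the arms of V. Peaks narrower than 400 bp made up 39.8% of the left arm and 34.1% of the right, against 27.7% in the centre and 32.6% of the whole list. Among the peaks found in both replicates the median was 1115.5 bp on the left arm and 1208 bp on the right, against 1318.5 bp in the centre. The replicate lists, whose peaks are wider, showed smaller contrasts, and in replicate 2 the right arm stood above the centre. The medians were 2228 bp on the left and 2338.5 bp on the right in replicate 1, against 2465 bp in the centre, and 2288 bp on the left and 2356 bp on the right in replicate 2, against 2331 bp in the centre. The ratio of left to right was 0.953 in replicate 1 and 0.971 in replicate 2, and 1.01 in the combined list, so the lists did not share a direction.

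**Figure D3:**
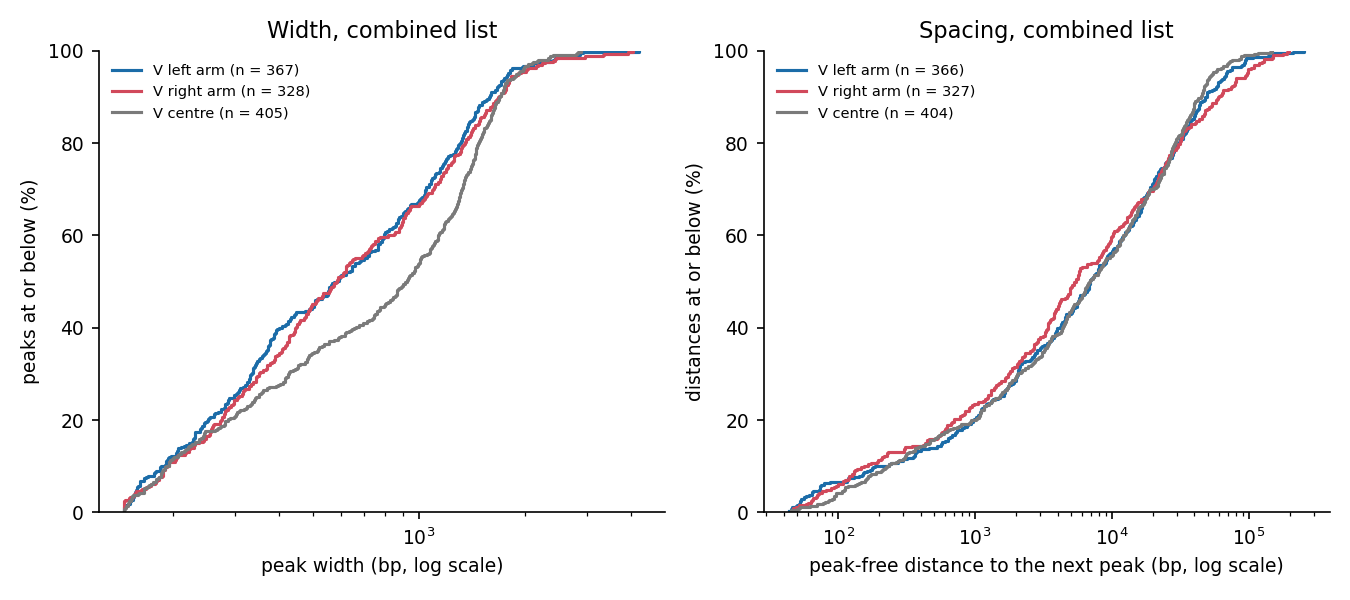
Cumulative share (%) of combined-list peaks by width (left) and of peak-free distances to the next peak on the same segment (right), both in bp on a log axis, for the left arm, the right arm and the V centre. The arms' width curves lie above that of the centre between about 400 bp and the upper quartile of 1409 bp of the centre, while the distance curves part mainly at the long end.

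Peaks wider than 2 kb numbered 12 on the left arm (3.27%) and 15 on the right (4.57%), against 14 in the centre (3.46%) and 5.21% of the whole list. The widest on the left arm was at 3756373 to 3760592, with a width of 4220 bp and a combined score of 120, and it stood at 3100 in replicate 1 and 2683 in replicate 2. It was followed by peaks at 125949 to 128876, with 2928 bp and 3100 in both replicates, and at 3585494 to 3588368, with 2875 bp, 2934 in replicate 1 and 973 in replicate 2. On the right arm the unsupported peak of 4056 bp described above was followed by those at 15001527 to 15005455 (3929 bp, 3100 in both replicates) and 15186983 to 15190343 (3361 bp, 3100 in replicate 1 and 1395 in replicate 2). Of these 6 broad peaks 5 were found in both replicates.

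Of all arm peaks 20.9% stood in the highest of the 4 score classes, against 25.0% of the whole list. The 5 highest-scoring sites of each arm found in both replicates were chosen by score, so high places in the list follow. They held places 8 to 56 on the right arm and 25 to 119 on the left. The first on the right arm, at 17869983 to 17872017, had a score of 195 and place 8 of 7546. The next 4 found in both replicates were at 20089693 to 20091577 (place 15), 15001527 to 15005455 (place 42), 16793709 to 16796149 (place 47) and 19643363 to 19645125 (place 56). All 5 stood at 3100 in replicate 1, and 4 of them also in replicate 2, the site at 20089693 having 3033 there. The first left-arm site was at 4371028 to 4372617, with a score of 182 and place 25, at 3100 in both replicates. The other 4 were at 1195047 to 1196818 (place 76), 1870473 to 1872876 (place 92), 6656103 to 6657845 (place 95) and 4615054 to 4616738 (place 119). Of these 5 right-arm sites 3 lay between 16 and 20 Mb, the segment with the fewest sites per Mb. The one at 17869983 began 25.3 kb beyond the end of the longest peak-free stretch of that arm, and the one at 19643363 lay just before a stretch without replicate peaks that is described below.

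The outermost sites of the combined list had no counterpart in the replicates. They were at 3261 to 3648 on the left, with a score of 23.4, and at 20882199 to 20882693 on the right, with a score of 4.65, against a median score of 17.01 over the whole list, and neither met a replicate peak. The outermost replicate peaks began at 6773 and 6984 on the left in replicate 1 and replicate 2, and ended at 20853393 and 20853385 on the right. At the inner limits of the arms, the last site inside the left arm was at 6998271 to 6998844 (score 25.0, in both replicates) and the first outside it at 7059714 to 7061224 (score 160, in both). The innermost right-arm site was at 14002101 to 14002545 (score 6.20, in neither), and the first outside it at 13961354 to 13963008 (score 67.5, in both).

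In the combined list the distances between neighbouring sites were similar on the arms and in the centre up to the upper quartile. The median peak-free distance to the next peak was 6895 bp on the left arm (quartiles 1553 and 24095 bp) and 5461 bp on the right (quartiles 1242 and 24228.5 bp), against 6802.5 bp in the centre (quartiles 1508.25 and 24979.8 bp). Distances under 1 kb made up 74 of 366 on the left arm (20.2%, exact 95% interval 16.2% to 24.7%) and 77 of 327 on the right (23.5%, interval 19.1% to 28.5%), against 81 of 404 in the centre (20.0%) and 24.9% over the whole list. In the replicate lists the median distance was 17269 bp on the left and 19163 bp on the right in replicate 1, and 20936 bp on the left and 19722.5 bp on the right in replicate 2, so the order of the arms was not the same in the lists. In the centre it was 20422 bp in replicate 1 and 21606 bp in replicate 2. The upper quartile in replicate 1 was 48645 bp on the arms together and 39182 bp in the centre. In replicate 2 it was 56038.2 bp on the arms and 38468.2 bp in the centre. Distances under 1 kb were 19 of 182 on the left (10.4%) and 10 of 149 on the right (6.71%) in replicate 1, against 9.89% of that list, and 11 of 160 (6.88%) and 9 of 146 (6.16%) in replicate 2, against 8.78%.

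When peaks less than 1 kb apart were joined, the left arm had 293 regions and the right arm 251. Of these 55 on the left and 57 on the right held more than 1 peak, and they took in 35.1% of the left-arm peaks and 40.9% of the right-arm peaks, against 34.1% in the centre. The most peaks in a region was 6 on each arm, at 4333721 to 4336525 on the left and at 20196913 to 20201738 on the right. Seen from the replicates, 79 of 333 replicate 1 peaks on the arms (23.7%) held 2 or more combined-list peaks, against 27.2% of that list, and 62 of 308 in replicate 2 (20.1%), against 23.3%. In the centre the shares were 19.2% in replicate 1 and 14.8% in replicate 2, below those of the arms.

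The 3 segments parted at the long end of the distances. Stretches of 50 kb or more without a combined-list peak numbered 33 on the left arm and 41 on the right, against 26 in the centre. Together they took up 41.8% of the left arm and 56.1% of the right arm, against 28.1% of the centre. At 100 kb or more there were 6 on the left and 13 on the right, against 4 in the centre, covering 14.4%, 26.5% and 7.33% of these segments. The order of the arms by number depended on the length required and on the list, since stretches of 30 kb or more numbered 75 on the left and 68 on the right, and those of 50 kb or more 42 and 40 in replicate 1 and 43 and 41 in replicate 2. At 100 kb or more replicate 1 had 15 on the left, 18 on the right and 9 in the centre, and replicate 2 had 19, 20 and 9. The share of the arm in such stretches was 35.8% on the left and 46.1% on the right in replicate 1, and 41.8% on the left and 50.9% on the right in replicate 2. In the centre that share was 17.6% in replicate 1 and 16.7% in replicate 2, so all 3 lists gave the right arm the largest share and the centre the smallest.

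Windows of 100 kb without a peak were also more numerous on the arms. Of the windows on the left arm 7 of 70 held no combined-list peak, and on the right arm 7 of 68, against 0 of 70 in the centre. In replicate 1 the empty windows numbered 15 on the left and 14 on the right, against 3 in the centre, and in replicate 2 they numbered 14 and 15, against 4. Windows with 10 or more combined-list peaks numbered 7 on each arm, against 4 in the centre. The variance of the count per window divided by its mean was 2.96 on the left arm and 2.58 on the right, against 1.51 in the centre. The fullest left-arm window, from 100001 to 200000, held 19 peaks and was also the fullest left-arm window of replicate 2, with 8, while that of replicate 1 was from 4100001 to 4200000, with 9.

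Nearly all replicate peaks on the arms met a combined-list peak, so few could lie whole in a stretch without one. The longest peak-free stretches of the combined list held no whole replicate peak, with 1 exception on the right arm. The first on the left arm was at 3777089 to 4029313, 252 kb long in the combined list, and the stretch free of replicate peaks there was 268 kb long in each replicate. The second, at 2878545 to 3088322, was 210 kb long in the combined list, 313 kb in replicate 1 and 209 kb in replicate 2. The remaining 3 on that arm began at 3347146, 5285714 and 4195708 and were 153, 147 and 138 kb long. On the right arm the first was at 17649356 to 17844657, with 195 kb in the combined list, 204 kb in replicate 1 and 206 kb in replicate 2. It was followed by 15812246 to 16000365 (188 kb, and 220 kb in each replicate) and by 19391509 to 19568711 (177 kb, 256 kb in replicate 1). In replicate 2 a whole peak lay inside that last stretch, the exception named above, and the peak-free stretch of 303 kb that overlaps it most ended at 19528087. The other 2 began at 16204251 and 16557993 and were 150 and 149 kb long. Of the 5 left-arm stretches 4 thus began between 2878545 and 4195708, and 4 of the 5 on the right arm between 15812246 and 17649356.

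**Figure D4:**
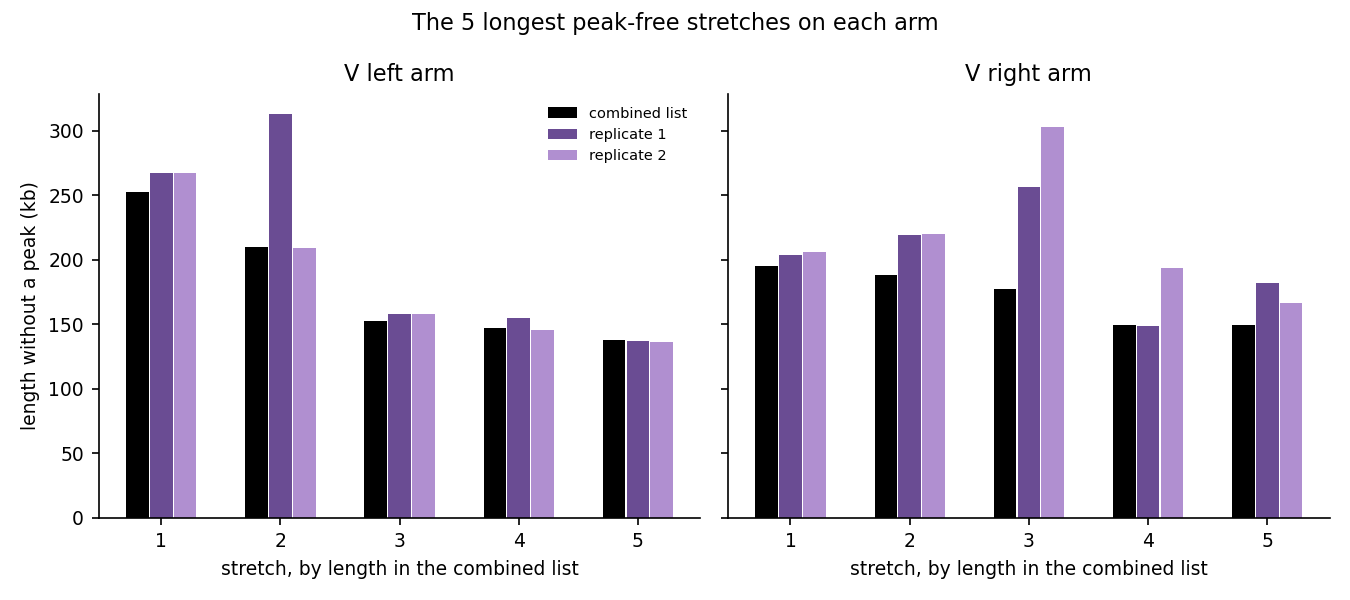
Length in kb (vertical axis) of the 5 longest stretches without a combined-list peak on each arm, in order of length, with the length of the replicate's peak-free stretch that overlaps it most, which for the third on the right arm ends inside it in replicate 2. The longest on the left arm measures 252 kb in the combined list and 268 kb in each replicate.

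All 333 replicate 1 peaks on the arms and 305 of the 308 in replicate 2 met a combined-list peak. Few could therefore lie whole inside the long stretches of the combined list. Of the 74 stretches of 50 kb or more on the arms, 33 on the left and 41 on the right, none held a whole replicate 1 peak, and 1, on the right arm, held a whole replicate 2 peak. The edges of wider replicate peaks at the borders reached into all but 6 and 8 of them in replicate 1 and all but 10 and 12 in replicate 2. Whole combined-list peaks inside the long stretches of the replicates were common. Of the 42 replicate 1 stretches of 50 kb or more on the left arm 33 held a whole combined-list peak, and 32 of the 40 on the right arm did. The combined-list peaks inside them, 73 on the left and 72 on the right, had median widths of 299 and 354 bp, and 65 and 60 of them met neither replicate. In replicate 2 the stretches held 92 and 91 such peaks, of which 66 and 66 met neither.

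The longest stretch without replicate peaks lay on the right arm. It ran from 18115940 to 18532917 in replicate 1, 417 kb, and from 18116014 to 18529029 in replicate 2, 413 kb. In the combined list it held 5 peaks between the limits of replicate 2, with a median width of 230 bp and scores up to 7.50, none of them in the upper 50% of the list. The limits of replicate 1 took in 1 more, at 18529503 to 18529912, which met replicate 2 only, with a score of 55.3 and in the upper 50%. A stretch from 19645604 to 19896681 in replicate 1 (251 kb), and nearly the same in replicate 2, held 7 combined-list peaks of at most 585 bp, which met neither replicate. It begins beside the strong site at 19643363. On the left arm the replicates shared a stretch near the end, at 357362 to 609833 in replicate 1 (252 kb) and at 350244 to 641757 in replicate 2 (292 kb), which held 6 and 11 combined-list peaks. These replicate stretches were chosen after their values had been seen.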

How the data were processed

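HTZ-1 ChIP samples and input DNA were grouped by their titles, 2 samples each. Per the file headers all 3 peak lists are on WormBase WS220. The source column names MACS for each replicate and MACS v2 for the combined list. The submitters' processing notes name BWA, with no version, and ce10. Thresholds, read filters, the role of the input and the making of the combined list are not given in the sources used here. Each deposited peak carries a score of the authors' caller, of unstated scale, which was used only within a list.

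Widths, distances, overlaps (1 bp or more) and densities by midpoint were computed with Python 3.11.15, numpy 2.4.6, pandas 2.3.3 and scipy 1.17.1. Interval functions were tested on simulated data. The right end of V was taken as its furthest peak end. Long stretches were those of 50 kb or more, assigned by midpoint. Intervals are exact Clopper-Pearson 95% intervals. Alternatives were other overlap rules, arm limits, score and length limits, merged peaks, covered length and single replicates. Named were, on each arm, the 5 highest-scoring peaks found in both replicates, the 3 widest, the highest-scoring in neither, the peaks at the limits and the 5 longest stretches. The members and these choices were made with earlier results of these data known. Sequences and genes were not used here, because no genome or annotation of WS220 was at hand.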

Additional observations from a re-analysis of the deposited data

How the results depend on the processing

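No paired analysis was possible because the input samples have no values here and the ChIP samples form a single group. Of 73 alternatives over 11 results, 42 stayed within the replicate spread, the exact interval or, for counts, 1.5 times. With the outer 5 Mb as arms, the left to right density ratio was 1.19 (1.10 as reported), the share found in both replicates 45.4%, the median width 525 bp and its left to right ratio 1.11. In the top 50% by score, the arm to centre density ratio was 0.702, the share found in both 88.1%, replicate 1 overlap 88.4%, median width 1218.5 bp (left to right 0.944) and median spacing 20997.5 bp. By covered length the arm to centre ratio was 0.736. An overlap of 50% of both peaks gave 19.9% found in both and a replicate 2 overlap of 87%. Merging gave a median width of 902 bp (left to right 0.895) and a median spacing of 12001 bp. Stretches of 30 kb or more numbered 75 on the left and 68 on the right, and of 100 kb or more 6 and 13, so the arms change order at 30 kb. At 50 kb they also change order in the top 50% by score, with 45 on the left and 41 on the right. From single replicates, the left to right density ratio was 1.08 to 1.20, the arm to centre ratio 0.678 to 0.733, the share found in that replicate 55.8% to 63.6%, the median width 2294 to 2305.5 bp (left to right 0.953 to 0.971), the score share 44.1% to 48.1%, the median spacing 18718 to 20373.5 bp, and the number of long stretches 42 to 43 on the left and 40 to 41 on the right. The left to right width ratio thus lies on either side of 1. Without the 7 grouped unsupported peaks of the right arm, an alternative added after seeing the data, the share found in both was 49.7%. Some shifts follow from the settings themselves. Keeping fewer peaks or joining near ones lengthens the distances between them. No replicate peak on the arms was narrower than 1304 bp in replicate 1 or 1119 bp in replicate 2. Much narrower combined-list peaks therefore cannot meet an overlap of 50% of both peaks. The cause of the other shifts was not tested. Unknown depth limits what the absence of a peak shows.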
